A study of Mus musculus with 23 samples.

Results

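The libraries compared here are the 3 A100-FMT and the 3 Con-FMT small intestines of set 1, which are 6 of the 23 libraries of the series. FMT stands for fecal microbiota transplantation. The libraries were chosen by group alone, as the sample labels give it, and no saline library was used. The question was whether the gut contents of donors dosed with alginate oligosaccharides (AOS) left the small intestine of the recipient in another state than the contents of undosed donors. All recipients were male ICR mice, an outbred strain, that received busulfan once at 40 mg/kg, a DNA-alkylating drug that injures dividing cells of the gut. Con-FMT recipients were then gavaged with pooled intestinal contents of donors dosed with vehicle, and A100-FMT recipients with those of donors dosed with AOS at 100 mg/kg. At busulfan the mice of set 1 were 3 weeks old, gavage lasted 1 week, and the intestine was taken at 5 weeks of age. These times were linked to set 1 through the code of the study's plasma samples, since the RNA labels give none. The A100-FMT code has a letter less than the Con-FMT code, and the labels do not say what the letter stands for. The study describes both as groups of the same FMT experiment, but the labels alone do not show whether these libraries come from it together. A difference between experiments and the effect of the donors' AOS cannot be told apart by the labels. Every mouse compared received busulfan, so neither group shows the untreated intestine. The contents were pooled within each donor group, so that the 3 libraries of a group share 1 donor pool. Values are FPKM, fragments scaled to transcript length and to the total of the library. How deeply a library was sequenced is unknown from them.

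The epithelium of the small intestine is renewed from stem cells in the crypts, whose daughters become either absorptive enterocytes or secretory cells. Paneth cells stay at the crypt base and release lysozyme, defensins and other antimicrobial proteins. Enteroendocrine cells release peptide hormones such as cholecystokinin and glucagon-like peptides, and goblet cells release the mucins that cover the surface.

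Markers of the epithelium were present and most markers of the deeper layers were near 0. The sum of FPKM ran from 557083 to 589309 in the 6 libraries, and Pearson's r across genes was 0.982 to 0.99 between libraries of the same group and 0.98 to 0.986 between the groups. All 17 enterocyte and all 16 goblet genes reached 1 FPKM in at least 1 of the 6 libraries. By contrast, 16 of 17 fibroblast, 11 of 12 endothelial, 12 of 18 smooth muscle, and all 12 enteric neuron and 14 Peyer patch genes were under 1 FPKM throughout. The 18 smooth muscle genes still summed to 282 to 294.2 FPKM after A100-FMT and to 275.9 to 286.7 after Con-FMT. The hemoglobin gene Hba-a1 was at 2.7, 3.26 and 6.09 FPKM after A100-FMT and at 0.6, 1.91 and 1.65 after Con-FMT, without overlap and without passing the test (limma, adjusted p = 0.44), and 7 of 9 erythroid genes were under 1 FPKM throughout. T cell genes summed to 70.5 to 128.3 FPKM after A100-FMT and to 77.7 to 185.3 after Con-FMT, highest in replicate 3 of each group. Among them Gzma, a granzyme, was at 27.3, 26.4 and 48.7 FPKM after A100-FMT and at 32.4, 33.2 and 72.9 after Con-FMT. The part of red cells and T cells in the results was not tested.

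Of 11349 genes tested with limma, 69 were higher and 33 lower in A100-FMT than in Con-FMT at an adjusted p under 0.05, which is 0.899% of the genes tested together, 0.608% higher and 0.291% lower. At an unadjusted p under 0.05 were 17.4%. The groups did not overlap at any of these 102 genes, but without overlap were also 11.5% of all tested genes on the higher side and 10.2% on the lower side. The lower genes changed more, with a median log2 change of -0.59 against 0.45 for the higher genes, and 8 of them fell at least 2-fold while 4 of the higher genes rose as much. Of the 12 lower genes that were named for the size of their change, 5 were on the Paneth list and 2 on the enteroendocrine list. The counts rested on the spread shared by 18 FMT libraries. With the 6 libraries alone in the fit, 3 genes were called and 1748 had an unadjusted p under 0.05. Of the 102 genes, 2 were among these 3, both of them entries without a gene symbol. Chgb and Bhlha15 thus lost their call in that fit. Without A100-FMT replicate 2 or 3, or without Con-FMT replicate 1 or 2, 2 to 4 genes were called, against 49 without A100-FMT replicate 1 and 236 without Con-FMT replicate 3. Chgb and Bhlha15 were the genes called whichever of the 6 libraries was left out, in fits that kept the other FMT libraries. In the 4 fits with 2 to 4 genes no gene was called higher, so each higher gene named below lost its call there, and Pla2g2f and Chga were the only other lower genes of the 102 to keep theirs in any of the 4.

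**Figure D1:**
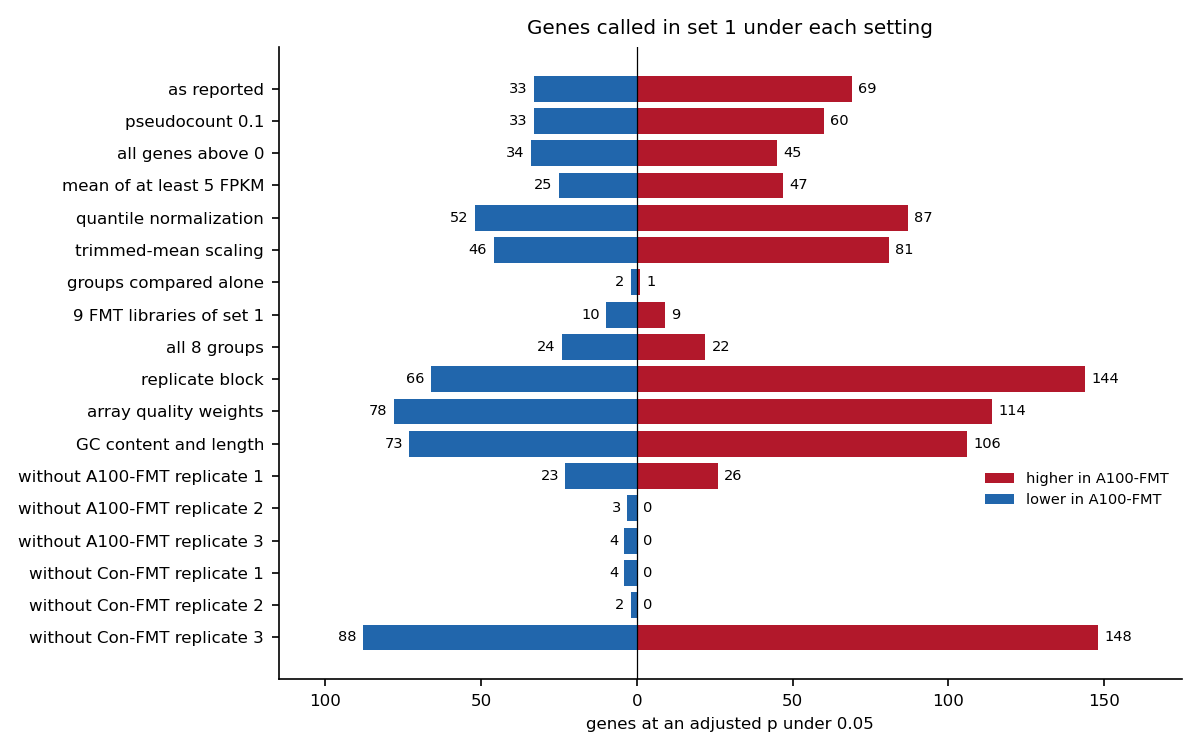
Number of genes at an adjusted p under 0.05 in A100-FMT vs. Con-FMT of set 1 (x axis), higher to the right and lower to the left, for the fit as reported and for each alternative (y axis). The reported 69 higher and 33 lower genes fell to 2 to 4 genes when any of 4 of the 6 libraries was left out.

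Antimicrobial genes of Paneth cells were expressed at a lower level after A100-FMT. Of 21 genes on the list, 17 were tested, and 5 were called lower and none higher (background 0.291% and 0.608%). Without overlap of the groups, 9 were lower and none higher (background 10.2% and 11.5%). The median log2 change was -1.11, beside 0.0006 over all genes tested. The members of this and the other lists were chosen with earlier results of these data known. The shares over all genes are therefore a description and no test of a list. Summed over the 18 members in the table, the 3 A100-FMT libraries held 10359 to 13036 FPKM and the 3 Con-FMT libraries 20327 to 27513. In a whole tissue, fewer cells of a type and less RNA per cell cannot be told apart.

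Lyz1, the lysozyme of Paneth cells that cuts bacterial cell walls, was at 2163, 1610 and 1391 FPKM after A100-FMT and at 4009, 4697 and 3531 after Con-FMT. The highest A100-FMT library was well under the lowest Con-FMT library, and the log2 change was -1.26 ± 0.24 (SE, limma, adjusted p = 0.027, n = 3 per group). Ang4, an angiogenin with activity against bacteria, was at 512, 406 and 257 FPKM against 1290, 1518 and 1120, and fell by 1.78 on the log2 scale (SE 0.27, limma, adjusted p = 0.014). Here each A100-FMT library lay under 0.5 of the lowest Con-FMT library. Itln1, intelectin 1, a lectin that binds microbial sugars, was at 629, 524 and 478 FPKM against 1232, 1491 and 1092 (log2 change -1.22 ± 0.18, limma, adjusted p = 0.013).

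The α-defensins are small pore-forming peptides stored in Paneth cell granules, and Defa24, the highest of those named here, was at 4520, 3640 and 3026 FPKM after A100-FMT and at 6788, 7744 and 5714 after Con-FMT (log2 change -0.86 ± 0.18, limma, adjusted p = 0.036). Defa17 was at 2834, 2264 and 1999 FPKM against 4202, 4564 and 3618 (-0.81 ± 0.17, adjusted p = 0.036). Defa29, called lower but not on the list, was at 861, 824 and 626 FPKM against 1534, 1544 and 1386 (-0.96 ± 0.20, adjusted p = 0.036). In all 3 genes the groups were apart, by a narrower gap than at Ang4. Defa3, Defa5, Defa26 and Mptx2, list members given after their values were seen, had log2 changes of -1.19, -1.05, -0.78 and -1.11 with no overlap of the groups, but did not pass (adjusted p = 0.057, 0.063, 0.051 and 0.16). Mptx1, a pentraxin close to Mptx2, was at 120 to 126 FPKM after A100-FMT and at 108 to 128 after Con-FMT. When A100-FMT replicate 2 or 3, or Con-FMT replicate 1 or 2, was left out, no gene of the list was called, whereas the list's median stayed between -1.24 and -0.76 in all 6 of these fits.

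A further 6 α-defensin genes divided the libraries in another way, chosen here after their values were seen. Defa2 was at 8.27, 0.64 and 488 FPKM after A100-FMT and at 4.25, 611 and 384 after Con-FMT. Defa21 was at 5.26, 0 and 382 FPKM against 1.94, 410 and 256. A100-FMT replicate 3 and Con-FMT replicates 2 and 3 were thus high at both genes, and the other 3 libraries were low, whatever the group. Defa20, Defa22, Defa23 and Defa30 ranked these 3 libraries above the others too, with 44.8 to 577, 79.4 to 708, 168 to 788 and 298 to 995 FPKM from the lowest to the highest library. None of the 6 was called, and over the other 11 tested members of the list the median log2 change was -1.05. The 6 were set apart because their groups overlapped. The 9 genes lower without overlap, of 17 tested (background 10.2%), are therefore among the 11 by this choice.

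Of these genes, 4 have nearly the same sequence before their start. Such bases lie outside the transcript and give no reads, and the transcripts themselves were not compared. The 60 bases before the start of these 4 are shown to let the copies be compared, from RefSeq on GRCm38.p6, plus strand, with the TATA box in capitals.
Defa2: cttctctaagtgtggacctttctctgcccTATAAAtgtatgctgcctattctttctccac
Defa20: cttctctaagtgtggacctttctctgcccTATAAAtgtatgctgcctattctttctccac
Defa21: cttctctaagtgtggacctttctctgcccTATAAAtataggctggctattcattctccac
Defa22: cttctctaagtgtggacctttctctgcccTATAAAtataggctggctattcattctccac
They stand at chr8:21378457-21378516, chr8:21509198-21509257, chr8:21025485-21025544 and chr8:21162217-21162276. Defa2 and Defa20 had 250 of 250 upstream bases in common, as did Defa21 and Defa22, and the pairs differed from each other at 5 bases (245 identical). Compared base by base without gaps, Defa23 and Defa30 shared 24.4% to 30% of the 250 bases with each other and with these 4. TATAAA began at base 31 before the start in these 4, at base 33 in Defa23 and at base 61 in Defa30. The compared sequences were thus out of step, and this share does not show how alike they are. TATAAA on either strand was found within 250 bases before the start in 12.4% of all 32851 promoters of the table. How reads that related genes may share were counted is not given in the sources used here, so the value of a single α-defensin gene is uncertain.

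**Figure D2:**
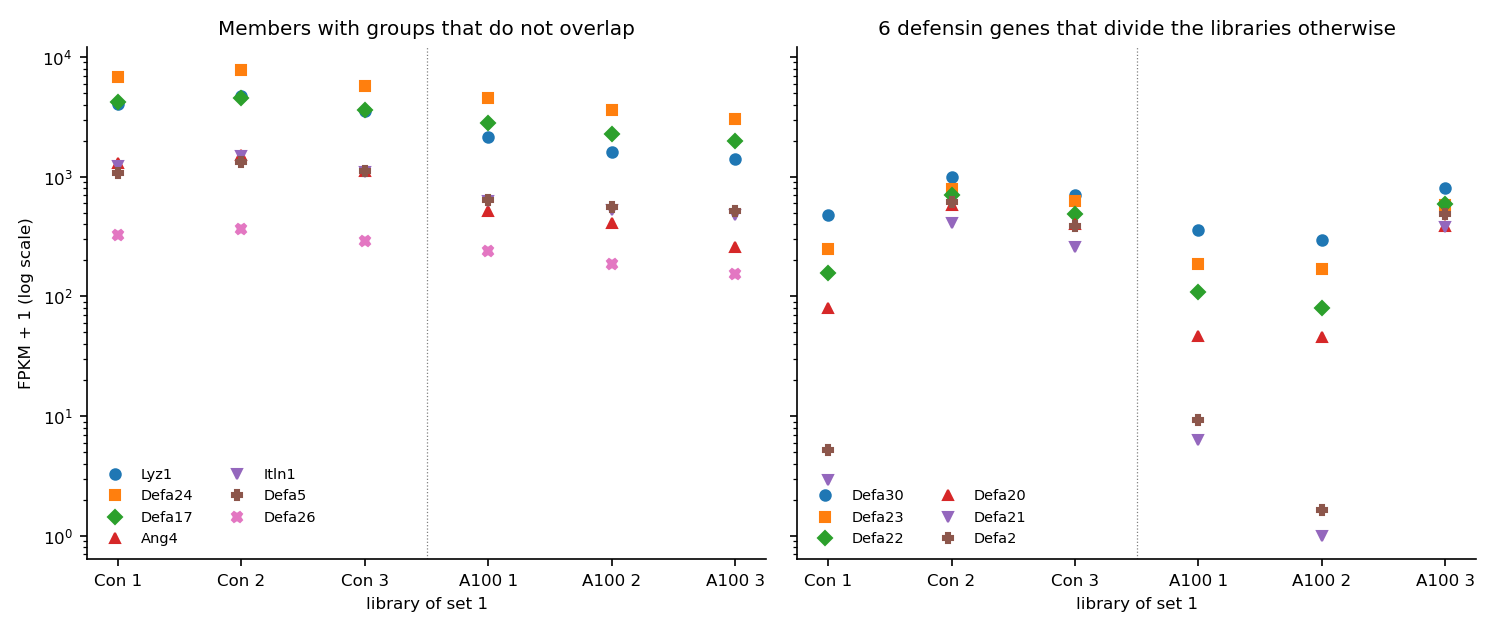
FPKM + 1 (y axis, log scale) of Paneth cell genes in each of the 6 libraries of set 1 (x axis, Con-FMT left and A100-FMT right of the dotted line), 1 symbol per gene. The 7 genes of the left panel are lower in all A100-FMT libraries, while the 6 defensin genes of the right panel are high in Con-FMT replicates 2 and 3 and A100-FMT replicate 3.

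Enteroendocrine genes were also expressed at a lower level after A100-FMT. The list of 22 genes was also chosen with earlier results known. Of these genes, 15 were tested, and 4 were called lower and none higher (background 0.291% and 0.608%). Without overlap of the groups, 11 were lower and none higher (background 10.2% and 11.5%), and the median log2 change was -0.32. The summed level was 349.8 to 414.9 FPKM after A100-FMT and 459.9 to 539.7 after Con-FMT. The called genes were those of both chromogranins, the acidic proteins that pack hormone granules, and of a pair of hormones. Chgb, chromogranin B, had the smallest adjusted p of all genes in this comparison. It was at 22.9, 18.8 and 22.9 FPKM after A100-FMT and at 38.9, 39.5 and 38.1 after Con-FMT, so the 3 libraries of a group were close together and the groups far apart (log2 change -0.83 ± 0.09, limma, adjusted p = 0.0015). Chga, chromogranin A, was at 24.1, 22.5 and 25.2 FPKM against 32.9, 31.3 and 32.2 (-0.41 ± 0.06, limma, adjusted p = 0.011).

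Cck, the precursor of cholecystokinin, which releases bile and pancreatic enzymes after a meal, was at 19.9, 16.2 and 18.4 FPKM after A100-FMT and at 27, 28.2 and 27.7 after Con-FMT (log2 change -0.59 ± 0.09, limma, adjusted p = 0.014). Gcg, the precursor of glucagon-like peptides, was at 17.5, 14.7 and 18.1 FPKM against 24.6, 28.7 and 31.9 (-0.73 ± 0.15, adjusted p = 0.037). Gcg lost its call whichever library was left out. Cck lost it without A100-FMT replicate 2 or 3 and Con-FMT replicate 1 or 2, and Chga without A100-FMT replicate 2 and Con-FMT replicate 1 or 2. Tph1, the enzyme of serotonin synthesis, was at 2.63, 1.4 and 1.71 FPKM against 3.5, 2.96 and 3.5 and did not pass (-0.59, adjusted p = 0.080), nor did the hormone genes Gip (-0.33, adjusted p = 0.40) and Sst (-0.28, adjusted p = 0.27), although neither overlapped between the groups. Reg4 was at 106 to 114 FPKM after A100-FMT and at 131 to 177 after Con-FMT (-0.48, adjusted p = 0.22). Sct, the secretin gene, and Neurog3, the factor that starts the enteroendocrine fate, overlapped, with log2 changes of 0.04 and 0.04. Outside the list, Insm1, a transcription factor of endocrine cells named after its value was seen, was called lower at 1.31, 1.12 and 1.13 FPKM against 1.89, 1.71 and 1.95 (-0.38 ± 0.07, adjusted p = 0.021).

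The 120 bases before the start of the 4 called genes follow, from RefSeq on GRCm38.p6, read 5′ to 3′ on the strand of the gene, to show what these promoters have and lack in common. Capitals mark the cAMP response element TGACGTCA or its core TGACG, which is also part of the full element, on either strand.
Chgb: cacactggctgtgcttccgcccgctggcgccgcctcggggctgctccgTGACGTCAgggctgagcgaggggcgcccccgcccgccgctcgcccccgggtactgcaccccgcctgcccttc
Chga: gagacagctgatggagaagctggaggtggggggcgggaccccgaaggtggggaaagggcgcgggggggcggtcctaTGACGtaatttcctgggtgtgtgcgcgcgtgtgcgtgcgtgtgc
Cck: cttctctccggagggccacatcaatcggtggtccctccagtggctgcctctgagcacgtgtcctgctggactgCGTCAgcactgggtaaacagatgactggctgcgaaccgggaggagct
Gcg: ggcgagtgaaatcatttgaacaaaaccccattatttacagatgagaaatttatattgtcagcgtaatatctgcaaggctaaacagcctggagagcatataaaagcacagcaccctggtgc
They lie at chr2:132781522-132781641 (plus strand), chr12:102554821-102554940 (plus), chr9:121495695-121495814 (minus) and chr2:62483654-62483773 (minus). Within 250 bases before the start, TGACGTCA was found in 2 of the 15 tested enteroendocrine genes, Chgb and Sst, and in 1.55% of all promoters of the table. TGACG was found in 7 of the 15 (8 of their 20 promoters) and in 17.8% of all promoters. Chgb carried it from base 72 before the start, Chga from base 44 and Cck from base 47. Gcg had neither in this window. A match of letters is a description and shows no binding.

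Further genes were lower outside the Paneth and enteroendocrine lists. Bhlha15 (Mist1), the transcription factor of mature secretory cells, was at 2.37, 2.61 and 2.03 FPKM after A100-FMT and at 6.08, 4.49 and 4.45 after Con-FMT (log2 change -0.84 ± 0.11, limma, adjusted p = 0.0058). Pla2g2f, a secreted phospholipase, was at 3.95, 4.18 and 4.07 FPKM against 6.69, 8.57 and 7.37 (-0.75 ± 0.10, adjusted p = 0.0081) and was called in 5 of the 6 fits that left out a library. The 3 A100-FMT libraries were within 0.23 FPKM of each other at this gene. Pnliprp2, a lipase related to that of the pancreas, was at 9.59, 5.13 and 5.21 FPKM against 22, 26 and 22.3 (-1.72 ± 0.26, adjusted p = 0.014). Habp2, a serine protease that binds hyaluronan, was at 8.73, 6.73 and 5.94 FPKM against 15.1, 18.1 and 14.8 (-1.07 ± 0.17, adjusted p = 0.014). Cd24a, a surface protein of tuft and crypt cells, was at 83.1 to 97.4 FPKM against 116 to 129 (-0.47 ± 0.09, adjusted p = 0.027), while the other 2 tuft genes tested did not pass.

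**Figure D3:**
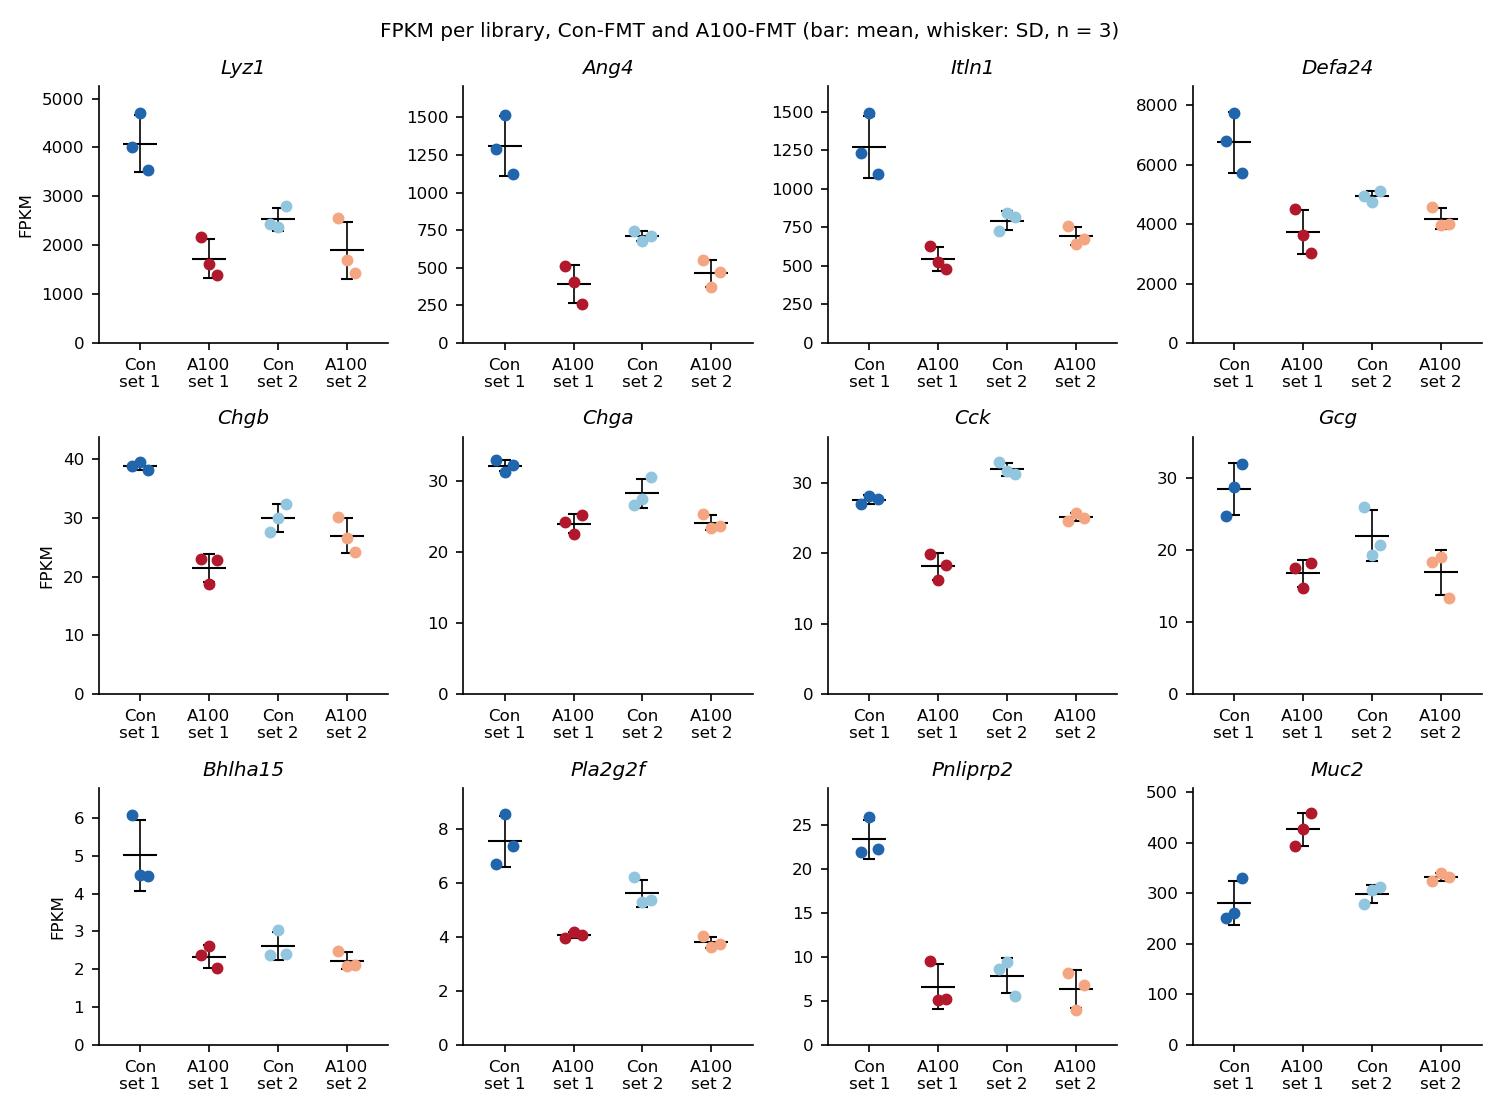
FPKM (y axis, from 0) of 12 genes in each library of Con-FMT and A100-FMT in set 1 and set 2 (x axis); points are libraries, bars the mean and whiskers the SD (n = 3). In set 1, 11 genes are lower and Muc2 is higher in all A100-FMT libraries. The groups of set 2 are closer together, which choosing the genes by set 1 favours.

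Goblet cell genes did not move together. Muc2, the gel-forming mucin of the intestine, was at 395, 427 and 460 FPKM after A100-FMT and at 251, 260 and 331 after Con-FMT, all 3 A100-FMT libraries being above the Con-FMT libraries (log2 change 0.61 ± 0.10, limma, adjusted p = 0.015). Of 16 tested goblet genes, Muc2 was the only one called higher and Ang4, which is also a Paneth gene, the only one called lower, and the median was 0.01. Clca1 (0.33, adjusted p = 0.25) and Fcgbp (-0.10, adjusted p = 0.64), which are secreted with the mucus, did not pass. The median had the opposite sign without A100-FMT replicate 3, or without Con-FMT replicate 1 or 2.

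The 69 higher genes were spread over many functions and had smaller changes. Nlrp9b, an inflammasome sensor of viral RNA in enterocytes, was at 8.43, 12 and 9.37 FPKM after A100-FMT and at 4.05, 4.44 and 5.5 after Con-FMT (log2 change 0.94 ± 0.18, limma, adjusted p = 0.026). Naip6, a sensor of bacterial flagellin, was at 45.8, 44.6 and 49.8 FPKM against 31, 27.6 and 37.2 (0.54 ± 0.11, adjusted p = 0.034). They were the only called members of 18 tested NOD-like receptor and inflammasome genes, of which 6 were higher without overlap (background 11.5%) and none lower, with a median of 0.10. Naip6 and Nlrp9b have close relatives in the genome, and reads may be shared among them.

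Among the higher genes that act in the nucleus, Ccnl2, a cyclin of splicing speckles, was at 54.9, 62.3 and 63 FPKM against 39.3, 35.3 and 42 (log2 change 0.62 ± 0.13, limma, adjusted p = 0.036). Sap25, a subunit of the Sin3 corepressor, was at 8.89, 11.5 and 9.98 FPKM against 4.72, 4.76 and 6.11 (0.85 ± 0.16, adjusted p = 0.026). Both genes had groups apart. The other named genes were Zfp488 (0.67) and Zfp948 (0.59), which encode zinc finger proteins, Chd3 (0.52), a helicase of the NuRD complex, Ankle1 (0.53), a nuclease, and Inafm1 (0.57) and Leng8 (0.52), all with an adjusted p of 0.015 to 0.0445. Gm2237, a predicted gene, had the largest log2 change of the called higher genes named here that carry a symbol, 1.06 ± 0.22, at 6.19, 4.87 and 7.38 FPKM against 2.88, 2.11 and 2.24. Of the called entries, 7 higher and 2 lower were BGI transcripts without a gene symbol. BGI_novel_G000469 was listed at 0 FPKM in all A100-FMT libraries and at 6.28, 4.68 and 10.2 in Con-FMT, and BGI_novel_G000648 was at 86, 85.9 and 58.8 FPKM against 25.8, 21.2 and 34.

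Of the crypt proliferation genes, 1 was called. Mcm2, a subunit of the helicase that opens DNA for replication, was at 22, 20.4 and 22.4 FPKM after A100-FMT and at 27.8, 27.8 and 24.2 after Con-FMT (log2 change -0.28 ± 0.06, limma, adjusted p = 0.043). It was the only one of 30 tested genes to be called, with 16 lower without overlap (background 10.2%), 1 higher (background 11.5%) and a median of -0.14. Pcna, the sliding clamp of replication, was at 143 to 147 FPKM against 154 to 170 and did not pass (-0.14, adjusted p = 0.20), nor did Mcm5, another subunit of the helicase (-0.23, adjusted p = 0.069), or Cdc6, which helps to load it (-0.28, adjusted p = 0.084). Of 20 stem cell and Notch genes, none was called and the median was -0.09, with Olfm4 at 378 to 468 FPKM in A100-FMT and 431 to 478 in Con-FMT. Notch1, the receptor that keeps progenitors from the secretory fate, was at 2.67, 2.47 and 2.69 FPKM against 3.79, 3.19 and 3.48 (-0.31, adjusted p = 0.056).

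Few genes of absorptive cells passed the test. Sar1b, the GTPase that lets chylomicrons leave the endoplasmic reticulum, was at 142, 155 and 135 FPKM after A100-FMT and at 125, 121 and 122 after Con-FMT (log2 change 0.23 ± 0.05, limma, adjusted p = 0.036). Of 26 tested genes of fat uptake, Sar1b was called higher and Pnliprp2 lower, 9 were higher without overlap (background 11.5%) and 1 lower (10.2%), and the median was 0.16. Fabp2, a fatty acid carrier of enterocytes, was at 1687, 1958 and 1565 FPKM against 1214, 1224 and 1296, apart but short of the threshold (0.47, adjusted p = 0.060). Slc34a2, the phosphate carrier of the brush border, was at 41.1, 48.8 and 42.3 FPKM against 26.5, 32.6 and 35.9 (0.47 ± 0.09, adjusted p = 0.033).

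None of 16 brush-border enzymes was called, with a median of 0.19 and 6 higher without overlap (background 11.5%). Mep1b, a meprin that cleaves peptides, was at 271 to 277 FPKM against 210 to 236 (0.30, adjusted p = 0.079), and Anpep, aminopeptidase N, at 1516 to 1664 against 1497 to 1587 (0.07, adjusted p = 0.71). Of 12 tested genes of the distal small intestine, 7 were higher without overlap (background 11.5%) and none was called higher, Gcg being called lower. Among them Fabp6, the bile acid carrier of the ileum, was at 1018, 771 and 787 FPKM against 593, 596 and 717 (0.43, adjusted p = 0.44), and Slc10a2, the ileal bile acid importer, at 7.41, 8.39 and 8.94 against 3.96, 4.2 and 5.62 (0.73, adjusted p = 0.26). The part in these results of where along the intestine the pieces were taken was not tested. Acot2, a mitochondrial thioesterase that splits fatty acyl-CoA, was the only one of 18 fatty acid oxidation genes called, at 2.34 to 2.53 FPKM against 3.2 to 3.57 (-0.36 ± 0.07, adjusted p = 0.027).

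**Figure D4:**
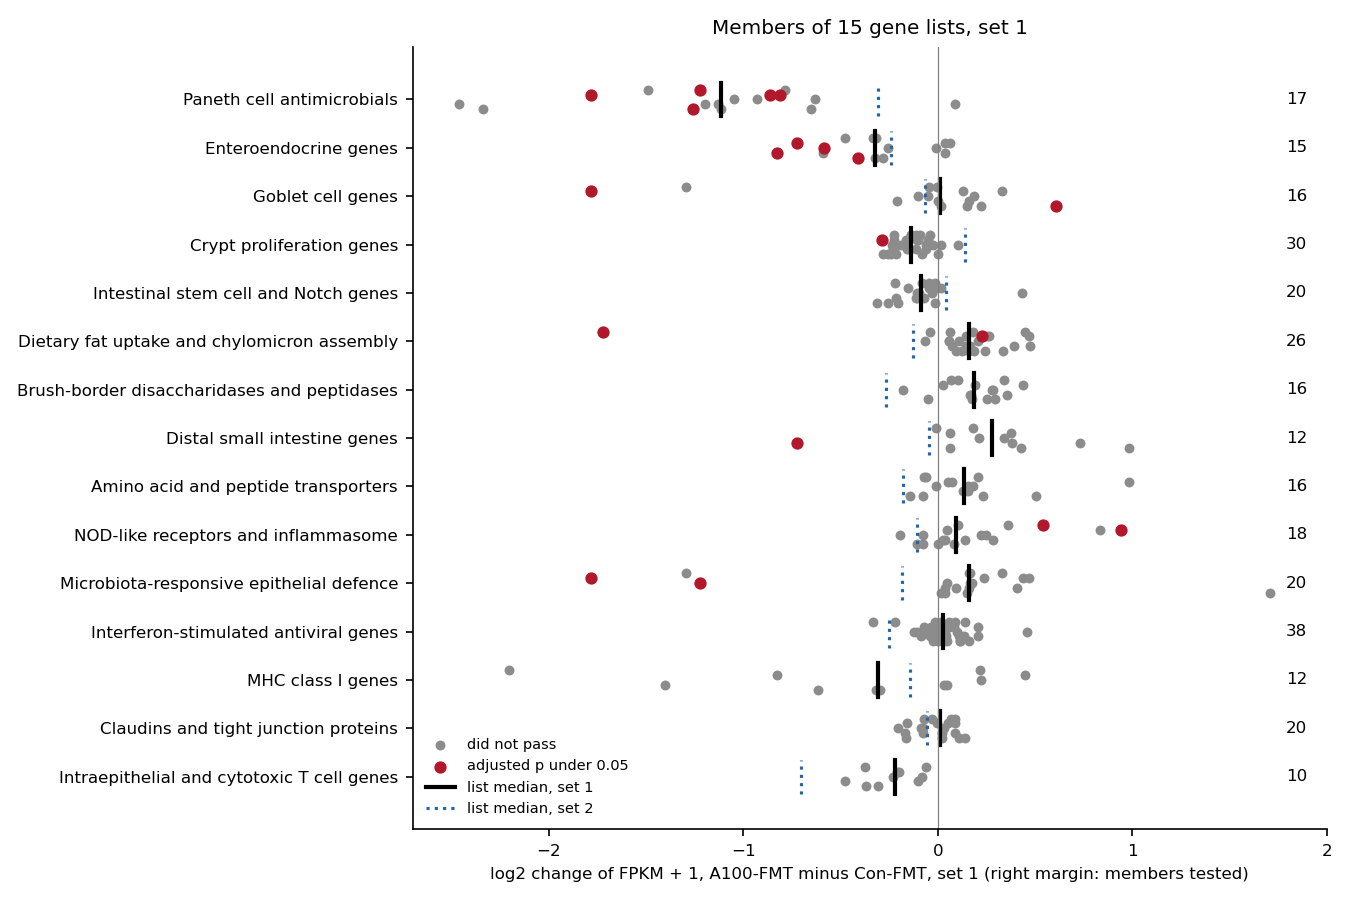
log2 change of each tested member of 15 gene lists in A100-FMT vs. Con-FMT of set 1 (x axis), 1 point per gene, called genes in red, with the median of the list in set 1 (solid line) and in set 2 (dotted line). Paneth (median -1.11) and enteroendocrine genes (-0.32) lie left of 0, and the set 1 medians of fat uptake (0.16) and brush-border genes (0.19) lie right of 0.

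Few defence and immune genes passed the test. Of 20 tested epithelial defence genes that answer to microbes, Ang4 and Itln1, given above, were called lower and none higher, with a median of 0.16. Nos2, which makes nitric oxide, was at 13.4, 14.8 and 14 FPKM after A100-FMT and at 9.17, 10.8 and 9.69 after Con-FMT without passing (0.47, adjusted p = 0.13). Saa1, serum amyloid A, was at 15.4, 35.2 and 30.5 FPKM against 2.59, 13.5 and 9.24 (1.71, adjusted p = 0.21), with a wide spread in each group. None of 38 interferon-stimulated genes was called, with a median of 0.03 and Ifit1bl1 at 244 to 306 FPKM against 227 to 265 (0.12, adjusted p = 0.70). None of 12 MHC class I genes was called, with H2-D1 at 1055 to 1265 FPKM against 1016 to 1212 (0.03, adjusted p = 0.89), and none of 7 MHC class II genes. None of 10 T cell genes was called, with a median of -0.22 and Gzmb, a protease of cytotoxic cells, at 12 to 22.3 FPKM against 14.6 to 38.4 (-0.37, adjusted p = 0.69).

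Of the 12 genes of proteins that the study stained or blotted, 10 were tested and none was called. The study measured protein and reported more of the stained junction proteins after A100-FMT than after Con-FMT. The values here are RNA and do not measure protein. E-cadherin (Cdh1) was at 254, 242 and 251 FPKM after A100-FMT and at 260, 258 and 264 after Con-FMT, apart by a narrow gap (log2 change -0.06 ± 0.05, limma, adjusted p = 0.52). Tjp1, the scaffold of tight junctions, was at 19.1, 17.4 and 20.5 FPKM against 20.9, 21 and 22.1 (-0.16, adjusted p = 0.37). Ctnnd1, the catenin p120 (-0.11, adjusted p = 0.41), Ocln, occludin (-0.08, adjusted p = 0.50), and Vil1, the villin of microvilli (0.06, adjusted p = 0.65), did not pass. Of 10 tested genes of this kind, 3 were lower without overlap (background 10.2%) and 1 was higher (background 11.5%).

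The same comparison could be made in set 2, whose 6 libraries share no sample with set 1. For set 2 the ages and the length of gavage are not known, nor whether its libraries come from other mice. There 107 genes were called (0.943%), of which 3 were among the 102 of set 1 and 2 of these changed in the same direction, Pla2g2f downward and Upf3b, a factor of nonsense-mediated decay, upward, while Fam214b changed in opposite directions. Without A100-FMT replicate 2 or Con-FMT replicate 2 of set 2, limma called 0 genes there (1906 and 1315 at an unadjusted p under 0.05). Over all tested genes, 45.7% had the same sign in both sets. Of the 33 genes called lower in set 1, 23 were also lower in set 2, with a median log2 change of -0.16. Of the 69 higher genes, 50 were higher, with a median of 0.11 beside 0.04 over all genes. Choosing genes by their change in set 1 favours smaller changes in set 2. Lyz1 was at 2556, 1702 and 1433 FPKM after A100-FMT of set 2 and at 2429, 2367 and 2795 after Con-FMT of set 2, so that the groups overlapped (-0.45, adjusted p = 0.33). The median of the Paneth list was -0.31 in set 2, with 5 genes lower without overlap (background 6.51%), and that of the enteroendocrine list -0.24, with 7. Neither list had a called gene there.

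Group means show where the sets differed. Lyz1 averaged 4079 ± 586 FPKM (SD, n = 3) after Con-FMT, 3555 after A10-FMT (donors dosed with AOS at 10 mg/kg) and 1722 ± 398 after A100-FMT in set 1, and 2530, 3474 and 1897 in set 2. Chgb averaged 38.8 ± 0.67, 33.4 and 21.5 ± 2.4 FPKM in set 1 and 30, 31.6 and 27 in set 2. Pnliprp2 averaged 23.4, 12.9 and 6.64 FPKM in the Con-FMT, A10-FMT and A100-FMT groups of set 1 and 7.91, 11.5 and 6.35 in those of set 2. The A100-FMT groups of both sets were thus close at Lyz1 and Pnliprp2, and the Con-FMT group of set 1 was above that of set 2 at all 3 genes. Tested as an interaction, the change differed between the sets at 107 genes (0.943%), and 14 of them were called in set 1. The interaction contains the set 1 change, so it favours genes called in set 1. Chgb (log2 difference between the sets -0.68, limma, adjusted p = 0.036), Bhlha15 (-0.68, adjusted p = 0.045), Acot2 (-0.51, adjusted p = 0.036) and Mcm2 (-0.48, adjusted p = 0.036) had the lower change in set 1, while Slc34a2 (0.84, adjusted p = 0.036), Sar1b (0.42, adjusted p = 0.036) and Zfp948 (0.65, adjusted p = 0.044) had the higher change there. Mep1b, not called in either set, had a difference of 0.55 (adjusted p = 0.041). No interaction was called by limma without A100-FMT replicate 1 or 2 or Con-FMT replicate 2 of set 1, or without A100-FMT replicate 1 or Con-FMT replicate 2 of set 2 (1757 to 2005 genes at an unadjusted p under 0.05). The difference did not pass at Lyz1 (-0.80, adjusted p = 0.20) or Ang4 (-1.15, adjusted p = 0.12). Proliferation genes had a median of -0.14 in set 1 and 0.14 in set 2, and fat uptake genes 0.16 and -0.13, with an interaction called at 4 of 30 and 2 of 26 genes.

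**Figure D5:**
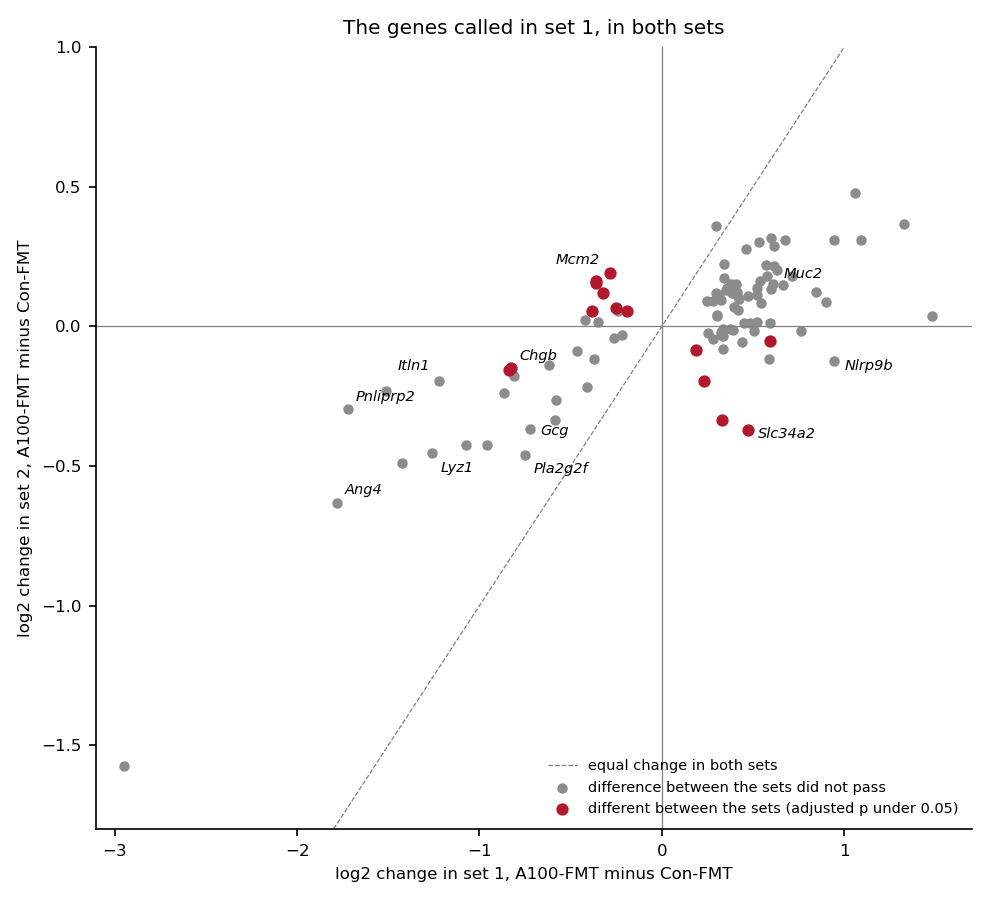
log2 change of A100-FMT vs. Con-FMT in set 1 (x axis) and in set 2 (y axis) for the 102 genes called in set 1; red points differ between the sets at an adjusted p under 0.05 and the dashed line marks equal changes. Most points lie nearer to 0 on the y axis than on the x axis, which choosing the genes by set 1 favours.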

How the data were processed

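Small intestine RNA of 3 A100-FMT and 3 Con-FMT libraries of set 1 was compared. Whether each library holds the RNA of 1 mouse is not stated, and each was treated as a separate mouse. The authors isolated total RNA with TRIzol and sequenced it on an Illumina HiSeq; the submitters' notes name the build mm10, and the aligner and counter are not given in the sources used here. The values deposited by the authors are FPKM for 19215 entries (17842 NCBI Gene numbers, 17736 matched to a symbol, and 1373 BGI identifiers). Of 24 columns, 1 was left without a sample and not used. No count model was fitted, as no read numbers were used: in only 24 of 652 low genes did FPKM fall into steps of whole reads.

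Values were analysed as log2(FPKM + 1) with R 4.3.3 and limma 3.58.1 (1 mean per group, 18 FMT libraries in 6 groups, 12 residual degrees of freedom, eBayes with trend). The 11349 genes whose mean over these libraries reached 1 FPKM were tested, with Benjamini-Hochberg adjustment and a threshold of 0.05. The added 1 shrinks changes of low genes, and p-values measure the spread between libraries of a group, whose mice share a donor pool. Tables and figures were made with Python 3.11.15, pandas 2.3.3 and matplotlib 3.10.9, and the fit was tested on simulated data.

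Genes named were the 12 highest and 12 lowest called genes with a symbol, no overlap and a mean of at least 5 FPKM in the higher group, up to 4 called members of each of 53 gene lists (or, with fewer than 2, its most abundant members up to 2), and the genes of proteins measured in the study; other names are marked or are list members given by value. The members and lists were chosen with earlier results of these data known. Same-numbered libraries were not paired (correlations of deviations -0.075, -0.026 and 0.151 in set 1 and 0.317, 0.2 and 0.077 in set 2, where over 0.1 in every pair was required). Alternatives were another pseudocount, filters, scalings, libraries in the fit, a replicate block, array weights, an adjustment for GC content and length (GENCODE M21, 10535 genes), and leaving out each library.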

Additional observations from a re-analysis of the deposited data

Results flagged for a closer look

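The change from Con-FMT to A100-FMT differed between set 1 and set 2 at 107 genes by the interaction test (limma, adjusted p under 0.05). Of the genes named above, Chgb (log2 change of set 1 minus set 2 of -0.68), Bhlha15 (-0.68), Acot2 (-0.51) and Mcm2 (-0.48) had the lower value in set 1, and Slc34a2 (0.84), Zfp948 (0.65), Mep1b (0.55) and Sar1b (0.42) the higher one. At Mcm2, Acot2, Slc34a2, Sar1b, Mep1b and Zfp948 the sets had changes of opposite sign. Mcm2 was at 22, 20.4 and 22.4 FPKM after A100-FMT and at 27.8, 27.8 and 24.2 after Con-FMT in set 1, and at 28.7, 25.2 and 27 and at 24.5, 23.1 and 22.7 in set 2. Slc34a2 was at 41.1, 48.8 and 42.3 FPKM against 26.5, 32.6 and 35.9 in set 1, and at 31.5, 31.2 and 28.3 against 36.7, 39.8 and 42 in set 2. Both genes thus had groups apart in each set, in opposite directions. The effect of the set and of whatever else differed between set 1 and set 2 cannot be told apart. The interaction calls depended on the fit. By limma, 0 genes were called with the groups alone, all 8 groups or a replicate block (2247, 1483 and 2375 at an unadjusted p under 0.05). With trimmed-mean scaling, 47 genes had the higher and 11 the lower change in set 1, against 48 and 59 as reported.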

How the results depend on the processing

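In set 1, 102 genes were called, and the count fell to 3 with the 6 libraries alone, 19 with the 9 FMT libraries of set 1 and 46 with all 8 groups, and rose to 192 with array weights and 179 with GC content and length taken out (54 higher and 30 lower on the same genes without it). Leaving out each library gave 2 to 236. In set 2, with 107 genes, the count was 53 with all genes above 0, 207 at a mean of 5 FPKM, 65 with trimmed-mean scaling (9 higher and 56 lower, against 60 and 47), with quantile normalization 30 higher and 64 lower, 442 with array weights, and 0 with the groups alone (1831 at an unadjusted p under 0.05) or all 8 groups (1270). Leaving out each library gave 0 to 173. For the interaction, with 107 genes (48 higher), limma gave 27 with all genes above 0, 68 with quantile normalization (51 higher), 58 with trimmed-mean scaling (47 higher), 625 with array weights, 268 with GC content and length, and 0 with the groups alone (2247 at an unadjusted p under 0.05) or all 8 groups (1483). Leaving out each library gave 0 to 453. A replicate block gave 210 genes in set 1, 2 in set 2 and 0 for the interaction (2375 at an unadjusted p under 0.05). It was tried although same-numbered libraries did not correlate over 0.1 in every pair. That cutoff does not show whether the numbers pair the mice. In set 1, A100-FMT replicates 1 and 2 correlated best with Con-FMT replicates 2 and 1, and replicate 3 with its own number. In set 2 each A100-FMT library correlated best with the Con-FMT library of its own number.

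Of the 102 called genes, 44 to 101 were called in the same direction in the fits that kept all 6 libraries, except for 2 with the groups alone and 17 with the 9 libraries of set 1, and none with a value changed sign. Uncalled genes changed sign without 1 library, where the lowest and highest values were -0.65 and 0.0002 for Gzma, -0.61 and 0.067 for Gzmb (both above 0 without Con-FMT replicate 3), -0.050 and 0.11 for H2-D1 (below 0 without A100-FMT replicate 2 or Con-FMT replicate 1), -0.021 and 0.098 for Neurog3 (without Con-FMT replicate 2) and -0.066 and 0.15 for Sct (without A100-FMT replicate 3 or Con-FMT replicate 1). Array weights gave -0.025 for Sct. Causes were not tested. At 1.5-fold without overlap, 76 genes were higher and 70 lower, against 16 and 31 at 2-fold. Since depth is unknown, a gene at 0 FPKM has no stated limit.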

Other observations

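MHC class I genes of the H2-T region, looked at after their values were seen, varied among the libraries of a group. H2-T22 was at 1.42, 12.9 and 1.55 FPKM after A100-FMT and at 18, 25 and 16 after Con-FMT (log2 change -2.20, limma, adjusted p = 0.28). H2-T3 was at 0.02, 17.4 and 0.28 FPKM against 10.3, 32.7 and 22.8, and H2-T24 at 0.86, 2.47 and 1.1 against 4.63, 6.35 and 5.02. A100-FMT replicate 2 was the highest of its group at all 3 genes and Con-FMT replicate 2 the highest of its own. At Defa2 and Defa21, A100-FMT replicate 2 was the lowest of all 6 libraries and Con-FMT replicate 2 the highest.

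Retnlb, the resistin-like protein of goblet cells, also singled out after its values were seen, was at 9.93 FPKM in A100-FMT replicate 1 and at 717 and 509 in the other 2 libraries of the group, against 536, 196 and 556 after Con-FMT. The genes of the circadian clock, a list with no call, included Per2 at 5.53, 5.42 and 8.2 FPKM after A100-FMT and at 3.88, 3.06 and 3.94 after Con-FMT (0.66, adjusted p = 0.094). The time of day of sampling was not used here.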
